A study of Mus musculus with 8 samples.

Results

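The genes described are the laminins, nidogens and perlecan of the basement membrane: the laminin alpha chains Lama1, Lama2, Lama4 and Lama5, the beta chains Lamb1 and Lamb2, the gamma chain Lamc1, the nidogens Nid1 and Nid2, and Hspg2, which encodes perlecan. They were chosen by name, and all 10 were found among the 21997 genes listed for both sources of follicle. Each of the 8 libraries holds the RNA of 1 single ovarian follicle of the mouse strain C57BL/6, and 2 libraries make up each of 4 groups. PF-WT were preantral and SAF-WT small antral follicles of wild type mice, and PF-TF and SAF-TF were follicles at the same stages that, per the labels, came from transplanted female germline stem cells (FGSCs). A preantral follicle is an oocyte within layers of granulosa cells, and a small antral follicle has begun to form a fluid-filled cavity and carries an outer theca layer. Which cells of a TF follicle came from the transplant, who the hosts were and how old the mice were is not stated. Whether the replicate follicles of a group had separate donors is not stated either, so the p-values below measure only the spread between these follicles. Every group mean is over n = 2 and stands with its SD, and means of log2 ratios over 4 libraries stand with the SD of those 4.

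The basement membrane of the follicle is a sheet of matrix that separates granulosa cells from the theca and its vessels. Laminins are cross-shaped trimers of 1 alpha, 1 beta and 1 gamma chain, and the alpha chain sets which cell receptors bind. Nidogens join the laminin network to the type IV collagen network, and perlecan is a large heparan sulfate proteoglycan that binds both networks and growth factors. The follicular sheet is known to change its laminin and collagen chains as follicles grow.

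RefSeq (GRCm38.p6) gave a promoter entry for 6 of the 10 genes, namely Nid1, Lamb1, Lama5, Lama2, Lamb2 and Hspg2. Small antral follicles were higher for Nid1, lower for Lama5 and, in TF, lower for Lamb1, as described below. The windows of these 3 genes are shown. Each is 140 bases long, reads 5′ to 3′ on the gene's strand and lies upstream of the annotated starts, at chr13:13437411-13437550 (+) for Nid1, chr12:31265094-31265233 (+) for Lamb1 and chr2:180225860-180225999 (-) for Lama5. Capitals mark the letters GGGCGG, the GC box, and CCAAT, searched on both strands, so that CCGCCC and ATTGG are their matches on the other strand.
Nid1: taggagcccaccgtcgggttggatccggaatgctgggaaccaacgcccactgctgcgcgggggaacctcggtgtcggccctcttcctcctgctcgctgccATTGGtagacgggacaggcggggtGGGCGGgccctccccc
Lamb1: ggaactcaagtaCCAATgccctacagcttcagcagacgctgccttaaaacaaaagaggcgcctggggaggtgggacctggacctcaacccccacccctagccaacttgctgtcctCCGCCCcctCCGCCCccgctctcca
Lama5: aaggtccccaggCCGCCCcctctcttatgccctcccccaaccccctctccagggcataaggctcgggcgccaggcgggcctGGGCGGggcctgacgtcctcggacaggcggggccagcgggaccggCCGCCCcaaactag
The Nid1 window held 1 GGGCGG and 1 CCAAT, that of Lamb1 held 2 GGGCGG and 1 CCAAT, and that of Lama5 held 3 GGGCGG and no CCAAT. In the 250 bases upstream of the start, the share of all 32851 promoters with GGGCGG was 32.7%, and with CCAAT 33.8%. Over those 250 bases Hspg2 held 5 GGGCGG, Lama5 held 4, and Lama2 and Lamb2 held neither motif. Lama2, whose window is not shown, was also lower in small antral follicles in TF. A match describes the letters only.

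Total counts ran from 7656108 to 9805287 per library, and 18796 to 20694 genes had a count. The 10 genes together took 0.0215% to 0.0352% of the counts. Replicates correlated at 0.945 to 0.972 in log2 CPM across genes, which are not independent replicates. CPM are library-scaled read counts (counts divided by the TMM-scaled library total and set to the usual common total), and a count of 0 would allow up to 3 counts, or 0.306 to 0.392 CPM depending on the library, which covers counting error only. Summed over 10 oocyte markers, CPM were 5807 to 15806 in the 4 PF libraries and 186 to 2481 in the 4 SAF libraries. Over 10 granulosa markers they were 1926 to 3623 in PF and 711 to 2385 in SAF. None of the measured markers of these or of the other cell types below was at 0 in both libraries of a group.

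Tests were made with the edgeR quasi-likelihood test with Benjamini-Hochberg adjustment over all 17925 genes tested, at an adjusted p of 0.05, and all 10 genes passed the filter on low counts. Between stages, the 2 nidogens were the genes of the set that were higher in small antral follicles, by 8.27-fold and 9.04-fold in WT and by 20.5-fold and 15.8-fold in TF. In WT, 3 of the 10 genes differed by stage, 2 higher and 1 lower (Lama5). Among all genes tested 35.1% did, 12.7% higher and 22.5% lower. In TF, 5 of the 10 differed, 2 higher and 3 lower (Lamb1, Lama2 and Lama5). Among all genes 43.2% did, 18.2% higher and 25% lower. The median log2 fold change of the 10 genes was 0.17 in WT and 0.20 in TF, and that of all genes was -0.20 and -0.08.

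Between sources, none of the 10 genes differed in preantral follicles by edgeR, where 0.218% of all genes did. At an unadjusted p under 0.05 there were 3 of the 10 (Lama2, Nid1 and Nid2), against 20.7% of all genes. The DESeq2 Wald test called 2 of the 10 (Nid1 and Nid2), and 7.15% of all genes. In small antral follicles 2 of the 10 differed, Lama1 higher and Lamb1 lower in TF, against 9.96% of all genes, 4.61% higher and 5.34% lower. The median log2 difference of the 10 genes, TF over WT, was 0.19 in PF and -0.14 in SAF, beside -0.03 and 0.00 for all genes. For the difference between the 2 stage effects (the interaction), edgeR called none of the 10 genes and 0.904% of all genes. There, 3 of the 10 were at an unadjusted p under 0.05 (Lamb1, Lama2 and Nid1), against 15.4% of all genes, and DESeq2 called 2 of them (Lamb1 and Lama2), against 4.52%.

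**Figure D1:**
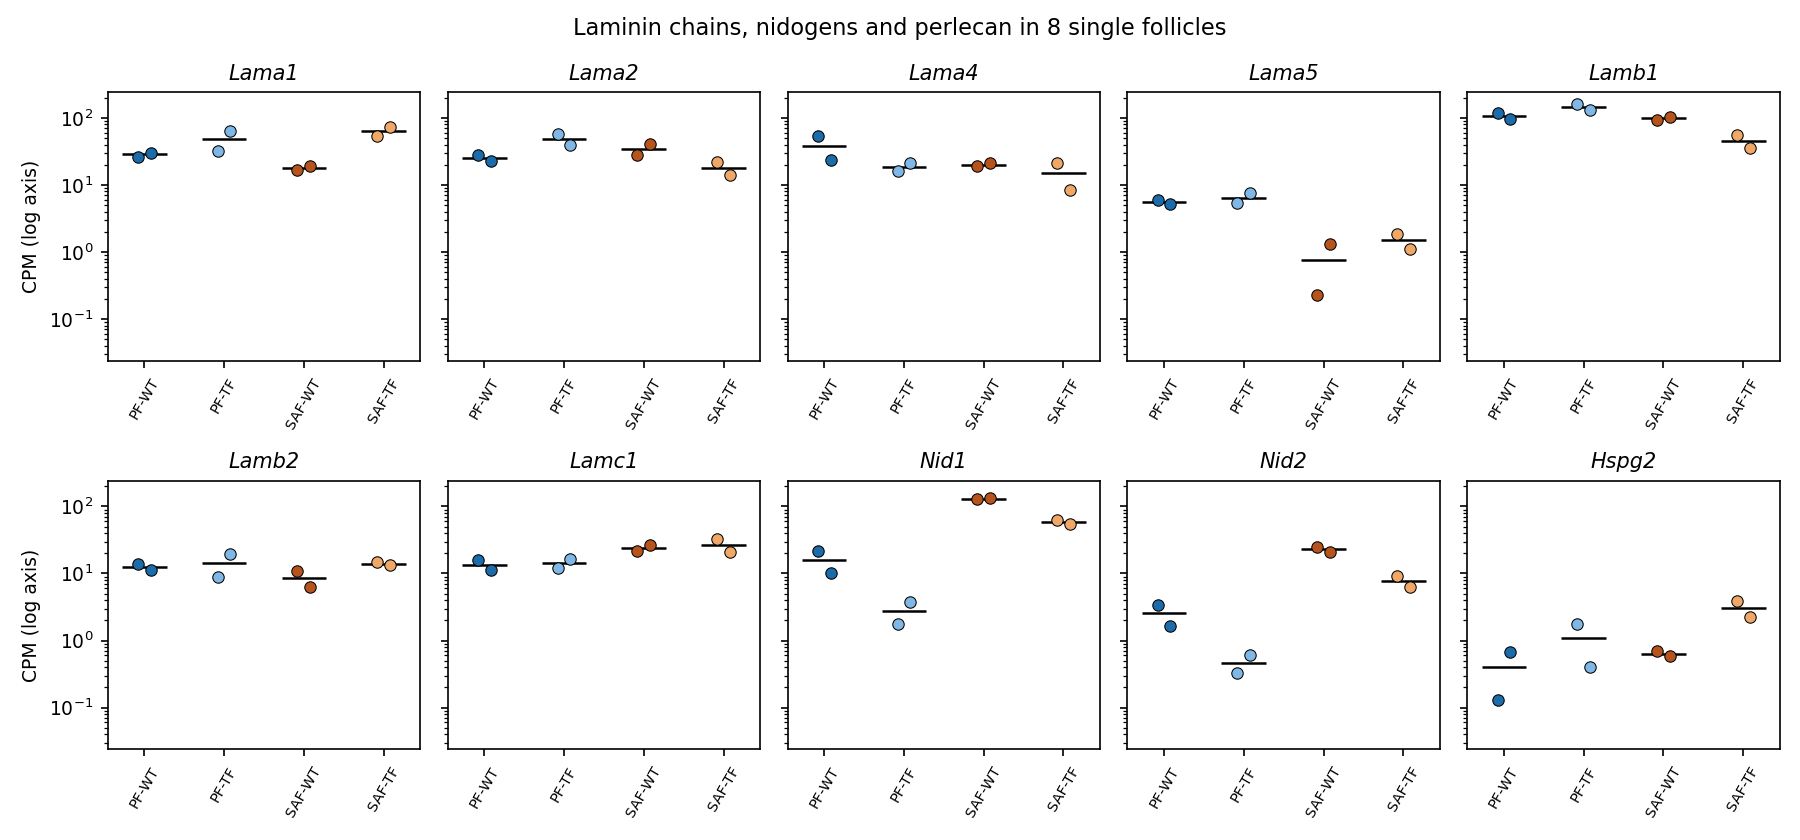
CPM (log axis) of each of the 10 genes in the 8 follicles, by group, with 1 point per library and a bar at the group mean. Both nidogens have their 4 antral libraries above their 4 preantral libraries, and Lama5 has its 4 antral libraries below its 4 preantral ones.

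**Figure D2:**
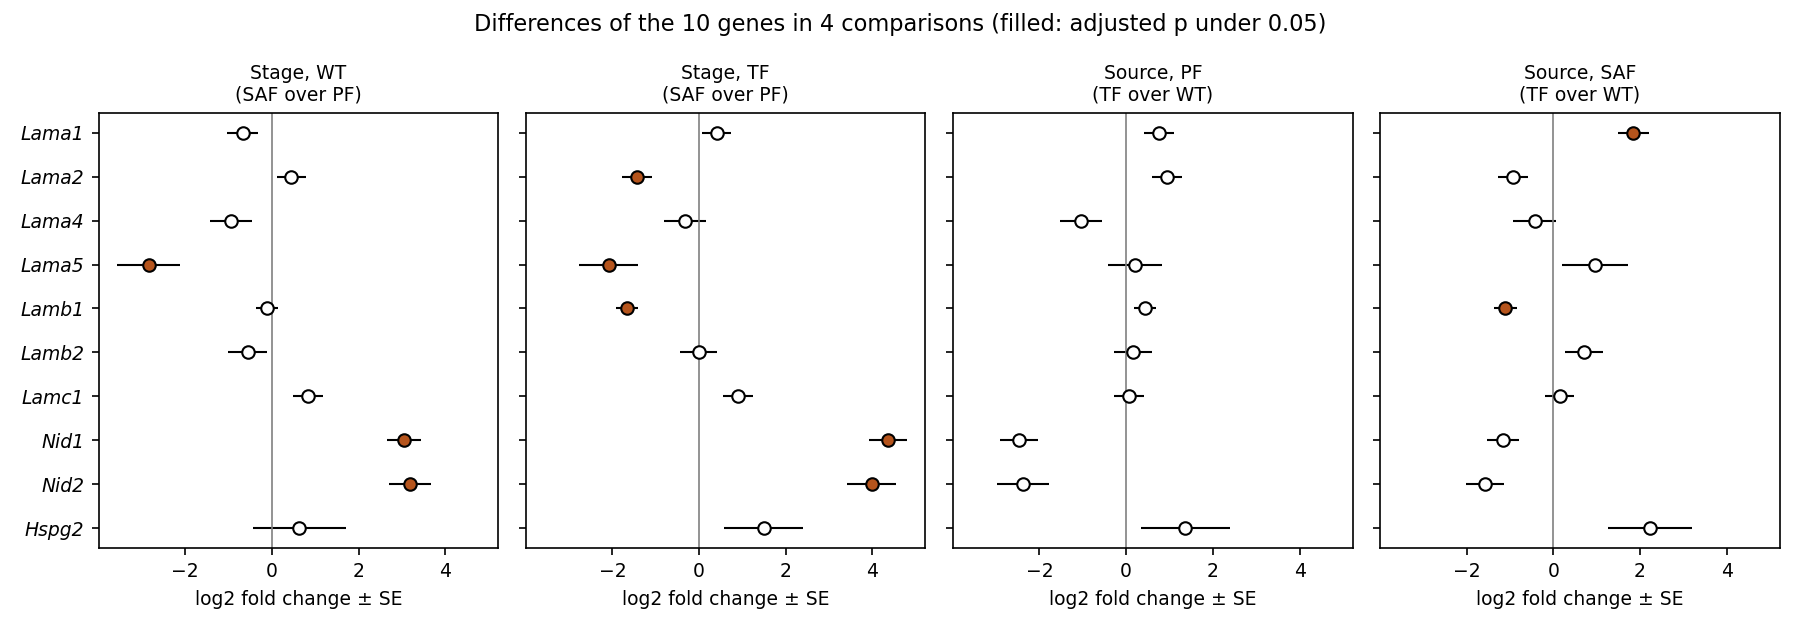
Log2 fold change ± SE of the 10 genes in 4 comparisons (stage in WT and in TF, SAF over PF, and source in PF and in SAF, TF over WT), from edgeR, with filled points at an adjusted p under 0.05. The nidogens lie far to the right in both stage comparisons and to the left in both source comparisons, where their points are open.

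Nid1 (GRCm38, chr13:13437551-13512269, + strand) encodes nidogen-1, the main linker of laminin to type IV collagen. Its level was 21.5 and 10.1 CPM in PF-WT, 1.77 and 3.81 CPM in PF-TF, 129 and 132 CPM in SAF-WT, and 61.8 and 54.3 CPM in SAF-TF. All 4 antral follicles lay above all 4 preantral ones, and at each stage both TF follicles lay below both WT follicles. The log2 fold change from preantral to small antral was 3.05 ± 0.40 (SE) in WT (adjusted p = 5.23e-04) and 4.36 ± 0.45 in TF (adjusted p = 8.91e-05). Without PF-WT replicate 1 the WT value was 3.80, and without PF-TF replicate 2 the TF value was 5.16. The adjusted p stayed between 3.16e-13 and 0.00412 in WT and between 5.43e-22 and 5.55e-04 in TF over 16 alternative settings each.

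The source difference of Nid1, TF over WT, was -2.48 ± 0.43 in PF (adjusted p = 0.0580) and -1.17 ± 0.37 in SAF (adjusted p = 0.0744), neither past the threshold. These values lay near it. Over 15 alternatives each the adjusted p ran from 1.08e-05 to 0.280 in PF and from 0.00458 to 0.296 in SAF. In PF the call was made without PF-WT replicate 2 (-2.92, adjusted p = 0.0111) and without PF-TF replicate 2 (-3.20, adjusted p = 0.0451). In SAF it was made with the 4 antral libraries alone (-1.12, adjusted p = 0.00458), with the length and GC offset (-1.35, adjusted p = 0.0467), with DESeq2 (-1.22, adjusted p = 0.0193), and without PF-WT replicate 1 (-1.12, adjusted p = 0.0288) or PF-WT replicate 2 (-1.17, adjusted p = 0.0273). It was not made without any 1 SAF library (adjusted p = 0.216 to 0.296). The interaction was 1.31 ± 0.56 (adjusted p = 0.305), so a difference between the 2 stage effects was not shown.

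Nid2 (chr14:19751265-19811787, + strand) encodes nidogen-2, the second member of the family. Its level was 3.41 and 1.66 CPM in PF-WT, 0.332 and 0.602 CPM in PF-TF, 25.0 and 20.7 CPM in SAF-WT, and 9.13 and 6.20 CPM in SAF-TF. The order of the groups was that of Nid1, with no overlap between any 2 of them. The PF-TF values rest on 3 and 6 counts, the first of them at the floor of 3 counts. The stage change was 3.18 ± 0.49 on the log2 scale in WT (adjusted p = 0.00115) and 3.98 ± 0.57 in TF (adjusted p = 5.20e-04). It was 3.88 in WT without PF-WT replicate 1 and 4.60 in TF without PF-TF replicate 2. The source difference was -2.38 ± 0.59 in PF (adjusted p = 0.0754) and -1.57 ± 0.44 in SAF (adjusted p = 0.0529), and over the alternatives these p ran from 0.0204 to 0.363 and from 0.0111 to 0.272. The interaction was 0.81 ± 0.72 (adjusted p = 0.661).

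The last 437 bases of Nid2 (chr14:19811351-19811787) overlap the gene Rtraf on the opposite strand, listed as 2700060E02Rik, an RNA transcription and transport factor. Whether reads were counted by strand is not stated, so reads from this stretch cannot be told apart. Rtraf stood at 565 and 477 CPM in PF-WT, 356 and 384 CPM in PF-TF, 956 and 862 CPM in SAF-WT, and 330 and 383 CPM in SAF-TF. Rtraf thus stood higher in SAF than in PF in WT, overlapped between stages in TF, and was lower in TF than in WT at both stages. Its part in the Nid2 differences was not tested.

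The count ratio of Nid1 to Nid2 within a library was 6.07 to 6.31 for PF-WT, 5.33 to 6.33 for PF-TF, 5.15 to 6.38 for SAF-WT and 6.77 to 8.75 for SAF-TF. The ratio therefore moved far less than either gene. The log2 ratio was 2.72 ± 0.31 in the 4 SAF libraries and 2.50 ± 0.18 in the 4 PF libraries, a difference of 0.23 (two-sided exact permutation p = 0.286, 0.429 adjusted over 6 ratios). By source it was 0.11 higher in the 4 TF libraries (exact permutation p = 0.629, adjusted 0.686). Over the 8 libraries the log2 CPM of the 2 genes correlated at r = 0.992, a description in which the points share library and depth.

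Markers of some cells outside the basement membrane moved with the nidogens, and those of others did not. In bulk follicles, fewer cells of a type and less RNA per cell cannot be told apart. The 8 stromal and fibroblast markers summed to 491 and 203 CPM in PF-WT, 44.7 and 112 CPM in PF-TF, 8129 and 5784 CPM in SAF-WT, and 2149 and 1480 CPM in SAF-TF. This order of the groups is that of Nid1 and Nid2, also without Ogn, the most abundant of these markers. All 8 were higher in SAF in each source, against 12.7% of all genes in WT and 18.2% in TF.

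The 8 smooth muscle and pericyte markers summed to 174 to 576 CPM in PF-WT, 81.4 to 96.6 CPM in PF-TF, 2356 to 2805 CPM in SAF-WT and 1158 to 1766 CPM in SAF-TF. Of these markers, 5 of 8 were higher in SAF in WT and 7 of 8 in TF, against 12.7% and 18.2% of all genes. Without Acta2 their sums overlapped between sources in SAF, at 874 to 1112 CPM in SAF-WT and 605 to 896 CPM in SAF-TF. The 10 endothelial markers summed to 23.5 to 29.3 CPM in PF-WT, 18.9 to 19.1 CPM in PF-TF, 194 to 226 CPM in SAF-WT and 77.9 to 117 CPM in SAF-TF. By stage 5 were higher and 1 lower (Pecam1) in WT, and 6 were higher in TF, and by source in SAF 1 was lower in TF (Emcn). Of all genes, 12.7% were higher and 22.5% lower by stage in WT. By stage in TF 18.2% were higher, and by source in SAF 5.34% were lower. Without Emcn the endothelial sums overlapped between sources in SAF, at 74.4 to 82.6 CPM in SAF-WT and 47.1 to 85.5 CPM in SAF-TF.

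The 6 theca markers summed to 70.4 to 103 CPM in PF-WT, 23.7 to 43.2 CPM in PF-TF, 559 to 565 CPM in SAF-WT and 1130 to 1852 CPM in SAF-TF. In this sum SAF-TF lay above SAF-WT, unlike for the nidogens, but the single markers were split. By source in SAF, Lhcgr and Star, both also listed as luteal markers, were higher in TF. The other 4 (Cyp17a1, Insl3, Hhip and Ptch1) were lower in TF, the direction in which the nidogens lay. Of all genes, 4.61% were higher and 5.34% lower. Without Star the SAF sums overlapped, at 533 to 537 CPM in SAF-WT and 264 to 563 CPM in SAF-TF. The 7 macrophage markers summed to 34.6 to 91.3 CPM in PF-WT, 20.4 to 27.0 CPM in PF-TF, 58.4 to 82.9 CPM in SAF-WT and 320 to 462 CPM in SAF-TF, again with SAF-TF above SAF-WT. The part of these cell types in the nidogen results was not tested.

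Lama1 (chr17:67697259-67822647, + strand) encodes the alpha1 chain of laminin-111, the laminin of early embryos and of several epithelia. Its level was 26.5 and 30.5 CPM in PF-WT, 32.0 and 64.9 CPM in PF-TF, 16.6 and 19.1 CPM in SAF-WT, and 54.2 and 74.2 CPM in SAF-TF. The 2 SAF-TF follicles lay above both SAF-WT follicles, at means of 64.2 ± 14.1 and 17.9 ± 1.73 CPM. The difference of TF over WT in SAF was 1.85 ± 0.36 on the log2 scale, or 3.59-fold (adjusted p = 0.0159). This call rested on all 4 SAF libraries. Leaving out either SAF-WT or either SAF-TF follicle gave values of 1.61 to 2.06, and the call was lost each time. Over all 15 alternatives the value ran from 1.43 to 2.06, and the lowest adjusted p was 7.37e-05. In PF the difference was 0.76 ± 0.35 (adjusted p = 0.245), and it was 0.13 without PF-TF replicate 2.

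The stage change of Lama1 did not pass the test in WT (-0.68 ± 0.35, adjusted p = 0.162) or in TF (0.40 ± 0.34, adjusted p = 0.365). Without PF-TF replicate 2, the highest preantral follicle, the TF value was 1.15 with an adjusted p of 0.0287. The interaction was 1.08 ± 0.49 (adjusted p = 0.331). SAF-TF, where the Lama1 mean was highest, also held the highest sums of 6 luteal markers (21753 and 16026 CPM, against 274 to 284 CPM in SAF-WT) and of 7 macrophage markers (320 and 462 CPM, against 58.4 to 82.9 CPM). The next highest Lama1 mean was that of PF-TF, at 48.5 ± 23.3 CPM. Its sums were the lowest of both lists, at 21.4 and 26.5 CPM for luteal and 27.0 and 20.4 CPM for macrophage markers. The 10 granulosa markers summed to 1637 and 2385 CPM in SAF-TF and to 711 and 802 CPM in SAF-WT, but without Inha to 430 and 692 CPM and to 452 and 455 CPM, which overlapped. Their part in the Lama1 difference was not tested.

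Lama2 (chr10:26980036-27619758, - strand) encodes the alpha2 chain of the laminins of muscle and peripheral nerve. Its level was 28.2 and 22.4 CPM in PF-WT, 58.1 and 39.1 CPM in PF-TF, 28.3 and 40.8 CPM in SAF-WT, and 22.3 and 13.9 CPM in SAF-TF. In TF both antral follicles lay below both preantral ones, and in WT they lay above them, though 28.3 and 28.2 CPM nearly met. Lama2 fell by 1.42 ± 0.35 on the log2 scale from PF-TF to SAF-TF (adjusted p = 0.00883), and in WT the change was 0.45 ± 0.34 (adjusted p = 0.335). The TF call was lost without PF-TF replicate 1 (-1.01, adjusted p = 0.0809) and without SAF-TF replicate 2 (-1.12, adjusted p = 0.0774). The difference between the 2 stage effects was -1.87 ± 0.49 (adjusted p = 0.109 in edgeR, 0.0191 in DESeq2). The source difference was 0.94 ± 0.34 in PF (adjusted p = 0.163) and -0.93 ± 0.35 in SAF (adjusted p = 0.112). The 3 measured Schwann cell markers, of cells that use this chain, summed to 7.20 to 42.3 CPM over the 8 libraries.

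Lama4 (chr10:38965515-39110188, + strand) encodes the alpha4 chain, known from the basement membranes of blood vessels. Its level was 53.4 and 23.5 CPM in PF-WT, 15.9 and 21.4 CPM in PF-TF, 18.9 and 21.3 CPM in SAF-WT, and 21.3 and 8.46 CPM in SAF-TF. Both PF-WT follicles lay above the other 6, replicate 1 by far and replicate 2 narrowly, and the other 3 groups overlapped. Lama4 passed the edgeR test in none of the 5 comparisons. The endothelial marker sums given above were larger in antral follicles, while the Lama4 means were 38.5 ± 21.2 CPM in PF-WT and 20.1 ± 1.70 CPM in SAF-WT.

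Lama5 (chr2:180176373-180225859, - strand) encodes the alpha5 chain, widespread in the basement membranes of adult epithelia and vessels. Its level was 5.91 and 5.22 CPM in PF-WT, 5.32 and 7.53 CPM in PF-TF, 0.229 and 1.30 CPM in SAF-WT, and 1.87 and 1.13 CPM in SAF-TF. All 4 antral follicles lay below all 4 preantral ones, on 45 to 75 counts in PF and only 2 to 17 counts in SAF. Lama5 fell by 2.84 ± 0.73 on the log2 scale in WT (adjusted p = 0.0145) and by 2.09 ± 0.68 in TF (adjusted p = 0.0319). Without SAF-WT replicate 1, which held 2 counts, the WT value was -2.08 and its call was lost (adjusted p = 0.0893), and without SAF-WT replicate 2 it was -4.52. The TF call was lost without PF-TF replicate 2 (-1.68, adjusted p = 0.112), SAF-TF replicate 1 (-2.49, adjusted p = 0.0821) or SAF-TF replicate 2 (-1.77, adjusted p = 0.173), and with the authors' scale factors (-1.75, adjusted p = 0.0594). The decline of Lama5 went with lower sums of oocyte markers, at 5807 to 15806 CPM in PF and 186 to 2481 CPM in SAF. Granulosa marker sums were lower in SAF too within each source. They were 711 and 802 CPM in SAF-WT against 1926 and 3004 CPM in PF-WT, and 1637 and 2385 CPM in SAF-TF against 3623 and 3565 CPM in PF-TF. Without Inha they were 452 and 455 CPM in SAF-WT against 654 and 616 CPM in PF-WT. In TF they were then 430 and 692 CPM in SAF against 728 and 842 CPM in PF. The single granulosa markers were split. In WT 5 of 10 were called lower (22.5% of all genes), and 3 had a positive change. In TF 3 of 10 were called lower (25% of all genes), and 4 had a positive change. The part of the oocyte or granulosa markers in the Lama5 decline was not tested.

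Per kilobase of the longest coding transcript, the levels of Lama1, Lama2, Lama4 and Lama5 can be set beside each other. The shares below are of these chains only. The alpha chain Lama3 was measured too, at 0.344 to 12.7 CPM over the libraries, and is left out. Lama1 made up 18.5% and 32.4% of the alpha chain reads per kb for PF-WT, 26.9% and 45.2% for PF-TF, 22.3% and 20.3% for SAF-WT, and 48.6% and 72.6% for SAF-TF. Lama4 held 58.6% and 39.4% in PF-WT, and Lama2 and Lama4 together held most of the reads in SAF-WT, at 37.6% and 42.9% for Lama2 and 39.9% and 35.7% for Lama4. Lama2 was at 19.5% to 23.6% in PF-WT, 27.0% to 48.3% in PF-TF and 13.4% to 19.8% in SAF-TF. The leading chain per kb was thus Lama4 in both PF-WT libraries and Lama1 in both SAF-TF libraries. In the other groups it differed between the replicates, with Lama2 first in PF-TF replicate 1 and SAF-WT replicate 2, Lama1 in PF-TF replicate 2 and Lama4 in SAF-WT replicate 1. Of these chains, Lama5 was the lowest in every library, at 3.44% to 4.63% in PF and 0.257% to 1.40% in SAF. Lama3 is not part of this order.

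Ratios within a library do not depend on its scaling. The log2 count ratio of Lama1 to Lama5 was 5.12 ± 1.01 in the 4 SAF libraries and 2.59 ± 0.39 in the 4 PF libraries, with no overlap. The difference of 2.52 had a two-sided exact permutation p of 0.0286, the smallest that 4 against 4 allows, and 0.0857 after adjustment over the 6 ratios tested. The ratio of Lama2 to Lama5 differed by 2.12 (exact permutation p = 0.0286, adjusted 0.0857), also with no overlap, and that of Lama4 to Lama5 by 1.99 (exact permutation p = 0.0571, adjusted 0.114). These 3 ratios share Lama5, and none passed after adjustment. By source the same ratios differed by 0.53, -0.74 and -1.49 on the log2 scale, TF over WT, with exact permutation p of 0.686, 0.571 and 0.171, so none of the 6 ratios was below an unadjusted 0.05.

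**Figure D3:**
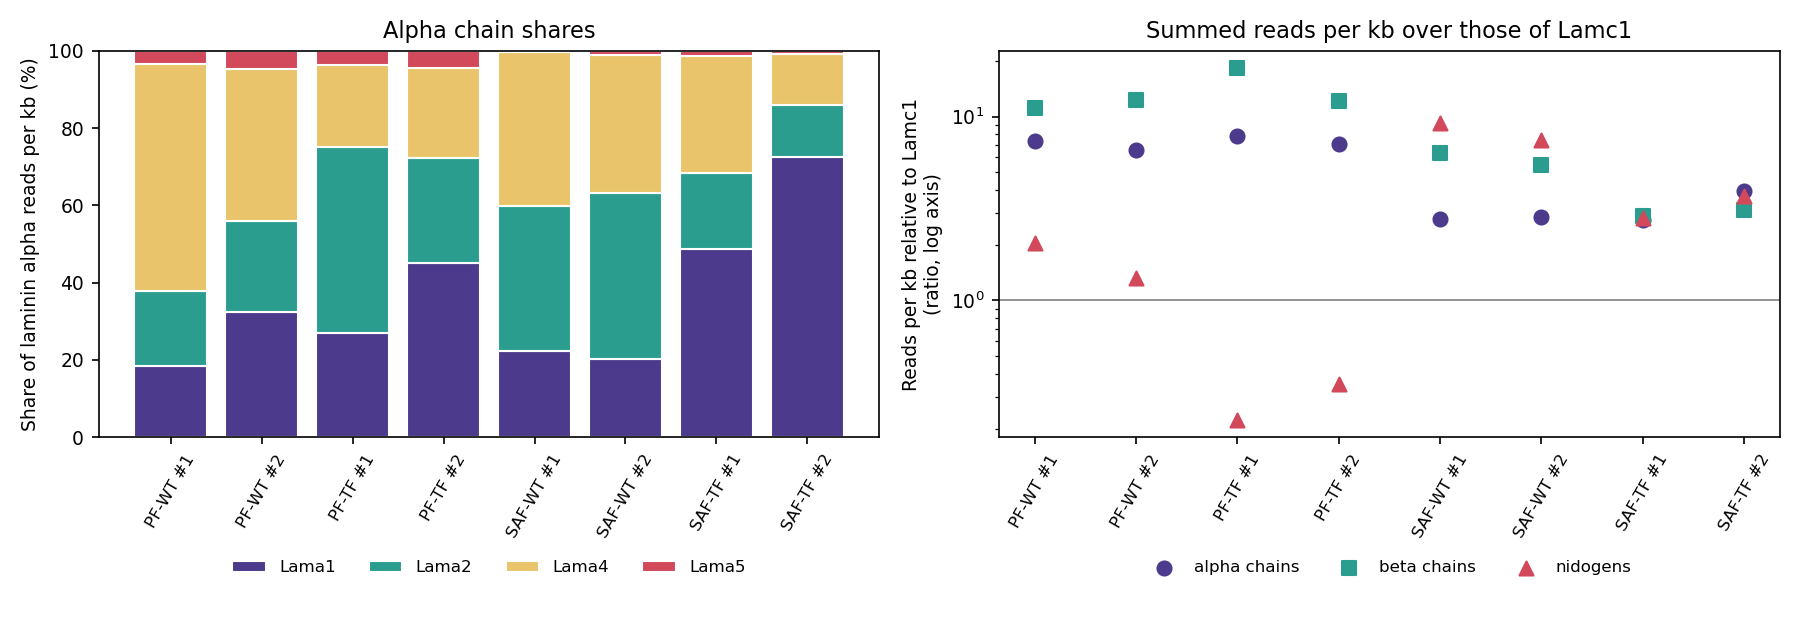
Left, shares of Lama1, Lama2, Lama4 and Lama5 in their summed reads per kb, in percent, for each follicle, with Lama3 left out. Right, reads per kb of the same alpha chains, the beta chains and the nidogens, each summed and divided by Lamc1 (log axis). The alpha and beta sums over Lamc1 are lower in the 4 antral libraries than in the 4 preantral ones, and the nidogen sum is higher.

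Lamb1 (chr12:31265234-31329644, + strand) encodes the beta1 chain found in most laminin trimers. Its level was 118 and 95.4 CPM in PF-WT, 160 and 129 CPM in PF-TF, 93.8 and 103 CPM in SAF-WT, and 55.9 and 35.6 CPM in SAF-TF. Both SAF-TF follicles lay below the other 6, and in WT the stages overlapped. Lamb1 fell by 1.66 ± 0.26 on the log2 scale from PF-TF to SAF-TF, or 3.16-fold (adjusted p = 9.15e-04), and this held over all 16 alternatives, with adjusted p of 4.30e-06 to 0.00888. In SAF it was lower in TF than in WT by 2.15-fold, a log2 difference of -1.11 ± 0.26 (adjusted p = 0.0300). That call was lost when any 1 of the 4 SAF libraries was left out (-0.81 to -1.46, adjusted p = 0.0705 to 0.136). The difference between the 2 stage effects was -1.55 ± 0.36 (adjusted p = 0.0881 in edgeR, 0.0117 in DESeq2, and 0.0349 with an offset for transcript length and GC content).

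The oocyte marker sum was lowest where Lamb1 was lowest, at 395 and 186 CPM in SAF-TF, and highest in PF-TF, at 15806 and 13064 CPM. SAF-WT held 421 and 2481 CPM of these markers beside Lamb1 levels of 93.8 and 103 CPM, and without Ooep SAF-WT replicate 1, at 218 CPM, lay between the SAF-TF follicles, at 289 and 119 CPM. The part of the oocyte markers in the Lamb1 difference was not tested.

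Lamb2 (chr9:108479736-108490530, + strand) encodes the beta2 chain, known from the glomerulus and the neuromuscular junction. Its level was 13.8 and 11.4 CPM in PF-WT, 8.86 and 19.4 CPM in PF-TF, 10.8 and 6.28 CPM in SAF-WT, and 14.7 and 13.3 CPM in SAF-TF. Both SAF-WT follicles lay below both PF-WT and both SAF-TF follicles, and PF-TF spanned nearly the whole range. Lamb2 passed the test in none of the 5 comparisons. Per kb, Lamb2 made up 10.7% and 11.0% of the beta chain reads for PF-WT, 5.38% and 13.3% for PF-TF, 10.6% and 5.88% for SAF-WT, and 21.3% and 27.7% for SAF-TF. SAF-TF thus had the highest shares, beside its lower Lamb1. The log2 count ratio of Lamb1 to Lamb2 differed by -0.64 by stage (exact permutation p = 0.400, adjusted 0.480) and by -0.76 by source (exact permutation p = 0.229, adjusted 0.457), which tests each factor over the 4 groups and not SAF-TF alone.

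Lamc1 (chr1:153218922-153332786, - strand) encodes the gamma1 chain, shared by most laminins. Its level was 15.6 and 11.4 CPM in PF-WT, 12.2 and 16.3 CPM in PF-TF, 21.7 and 26.4 CPM in SAF-WT, and 32.4 and 20.9 CPM in SAF-TF. All 4 antral follicles lay above all 4 preantral ones by a small margin, and the sources overlapped. The stage change was 0.83 ± 0.34 on the log2 scale in WT (adjusted p = 0.0874) and 0.91 ± 0.34 in TF (adjusted p = 0.0562), neither past the threshold. It depended on the scaling. With the authors' scale factors it was 1.17 in WT (adjusted p = 0.0234) and 1.24 in TF (adjusted p = 0.0141), and with RLE factors it was 1.02 in TF (adjusted p = 0.0381). In the authors' deposited table Lamc1 has an FDR of 2.08e-09 for WT and 6.43e-05 for TF.

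The other deposited calls can be set beside these. The authors' deposited table has 4 of the 10 genes under an FDR of 0.05 in WT (Lama2, Lamc1, Nid1 and Nid2), where it has 34.8% of all listed genes, and 7 in TF (Lama2, Lama5, Lamb1, Lamc1, Nid1, Nid2 and Hspg2), where it has 40.7%. For Lama5 in WT the authors' deposited table gives a log2 ratio of -2.52 with an FDR of 0.998. For Lama2 in WT it gives a log2 ratio of 0.79 with an FDR of 0.0229 in the authors' deposited table. The test behind that FDR is not stated.

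Reads per kb were also set against Lamc1 in the same library. Those of Lama1, Lama2, Lama4 and Lama5 summed to 6.59 to 7.83 times Lamc1 in the 4 PF libraries. In the 4 SAF libraries they summed to 2.75 to 3.92 times Lamc1. The beta chains summed to 11.1 to 18.3 times Lamc1 in PF, 5.47 to 6.38 times in SAF-WT and 2.88 to 3.11 times in SAF-TF. The nidogens together stood at 1.33 to 2.07 times Lamc1 in PF-WT, 0.225 to 0.351 times in PF-TF, 7.49 to 9.23 times in SAF-WT and 2.82 to 3.72 times in SAF-TF. These sums are descriptions of the libraries and were not tested. The transcripts run from 4.876 kb for Nid2 to 14.187 kb for Hspg2, and the values assume even coverage along them, which was not measured here.

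Hspg2 (chr4:137468769-137570630, + strand) encodes perlecan. Its level was 0.131 and 0.666 CPM in PF-WT, 1.77 and 0.401 CPM in PF-TF, 0.688 and 0.592 CPM in SAF-WT, and 3.85 and 2.26 CPM in SAF-TF. Both SAF-TF follicles lay above the other 6, on 35 and 20 counts against 1 to 16 counts. The difference of TF over WT in SAF was 2.23 ± 0.97 on the log2 scale (adjusted p = 0.165), not past the threshold, with adjusted p of 0.0341 to 0.602 over 14 alternatives. The log2 count ratio of Hspg2 to Lamc1 was 1.59 higher in the 4 TF libraries (exact permutation p = 0.0857, adjusted 0.457) and 0.45 higher in the 4 SAF libraries (exact permutation p = 0.686).

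In CPM per kb, Lamb1 led the 10 genes in PF-WT at 18.4 ± 2.75 and in PF-TF at 25.0 ± 3.77. Nid1 led in SAF-WT at 21.4 ± 0.41 and in SAF-TF at 9.53 ± 0.88, where Lamb1 came next at 17.0 ± 1.16 and 7.91 ± 2.47. In SAF-TF these 2 genes overlapped between replicates, with Nid1 at 10.1 and 8.91 and Lamb1 at 9.66 and 6.16, so their order there is within the spread. Nid1 was in place 5 in PF-WT at 2.60 ± 1.33, and in place 8 in PF-TF at 0.458 ± 0.237. Hspg2 and Lama5 were the lowest in SAF-WT at 0.0451 ± 0.0048 and 0.0673 ± 0.0667 CPM per kb, and in SAF-TF at 0.215 ± 0.079 and 0.132 ± 0.046 CPM per kb.

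The partners of these genes were described from a list of 40 other basement membrane genes, of which 39 were measured and 38 tested. In WT, 13 were higher and 3 lower in small antral follicles, against 12.7% and 22.5% of all genes, with a median log2 fold change of 0.88, beside -0.20 for all genes. In TF, 16 were higher and 4 lower, against 18.2% and 25% of all genes, with a median of 1.02 beside -0.08. The WT counts became 9 to 16 higher and 1 to 3 lower over the alternatives, and the TF counts 9 to 17 higher and 2 to 6 lower. The lowest counts of lower genes came without SAF-WT replicate 1 or with the length and GC offset (1 in WT) and without PF-TF replicate 1 or SAF-TF replicate 2 (2 in TF), and the 9 higher in TF without SAF-TF replicate 1. By source, none of the 38 differed in PF by edgeR, with 10 at an unadjusted p under 0.05 (20.7% of all genes) and 4 called by DESeq2 (7.15% of all genes). In SAF 5 were higher and 2 lower in TF, against 4.61% and 5.34% of all genes, and none was called in either direction without SAF-WT replicate 1 or without SAF-TF replicate 1.

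Col4a1 and Col4a2, the chains of the common type IV collagen, were higher in small antral follicles. Col4a1 stood at 28.6 and 11.7 CPM in PF-WT, 8.86 and 8.63 CPM in PF-TF, 117 and 131 CPM in SAF-WT, and 120 and 71.6 CPM in SAF-TF, a log2 change of 2.63 ± 0.41 in WT (adjusted p = 0.00125) and 3.45 ± 0.43 in TF (adjusted p = 2.49e-04). Col4a2 changed by 2.06 ± 0.39 (adjusted p = 0.00322) and 3.21 ± 0.41 (adjusted p = 2.81e-04). Without PF-WT replicate 1 the WT values were 3.52 and 2.76. For neither gene did the sources differ past the threshold.

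Col4a3 and Col4a4, chains of the second type IV network known from the glomerulus, had another order of groups. Col4a3 stood at 9.45 and 13.0 CPM in PF-WT, 36.3 and 20.7 CPM in PF-TF, 22.0 and 20.3 CPM in SAF-WT, and 6.05 and 8.91 CPM in SAF-TF. It fell by 1.93 ± 0.39 on the log2 scale with stage in TF (adjusted p = 0.00321) and was lower in TF than in WT in SAF (-1.50 ± 0.38, adjusted p = 0.0400). The latter call was lost when any 1 SAF library was left out (adjusted p = 0.0778 to 0.296). Col4a4 stood at 2.76 and 1.55 CPM in PF-WT, 1.66 and 2.91 CPM in PF-TF, 18.4 and 14.5 CPM in SAF-WT, and 4.07 and 4.06 CPM in SAF-TF. Its stage change in WT was 2.93 ± 0.50 (adjusted p = 0.00192), and in SAF the log2 difference of TF over WT was -2.01 ± 0.47 (adjusted p = 0.0296), a call that was also lost without any 1 SAF library (adjusted p = 0.0937 to 0.216). Col4a5 and Col4a6 passed in no comparison.

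**Figure D4:**
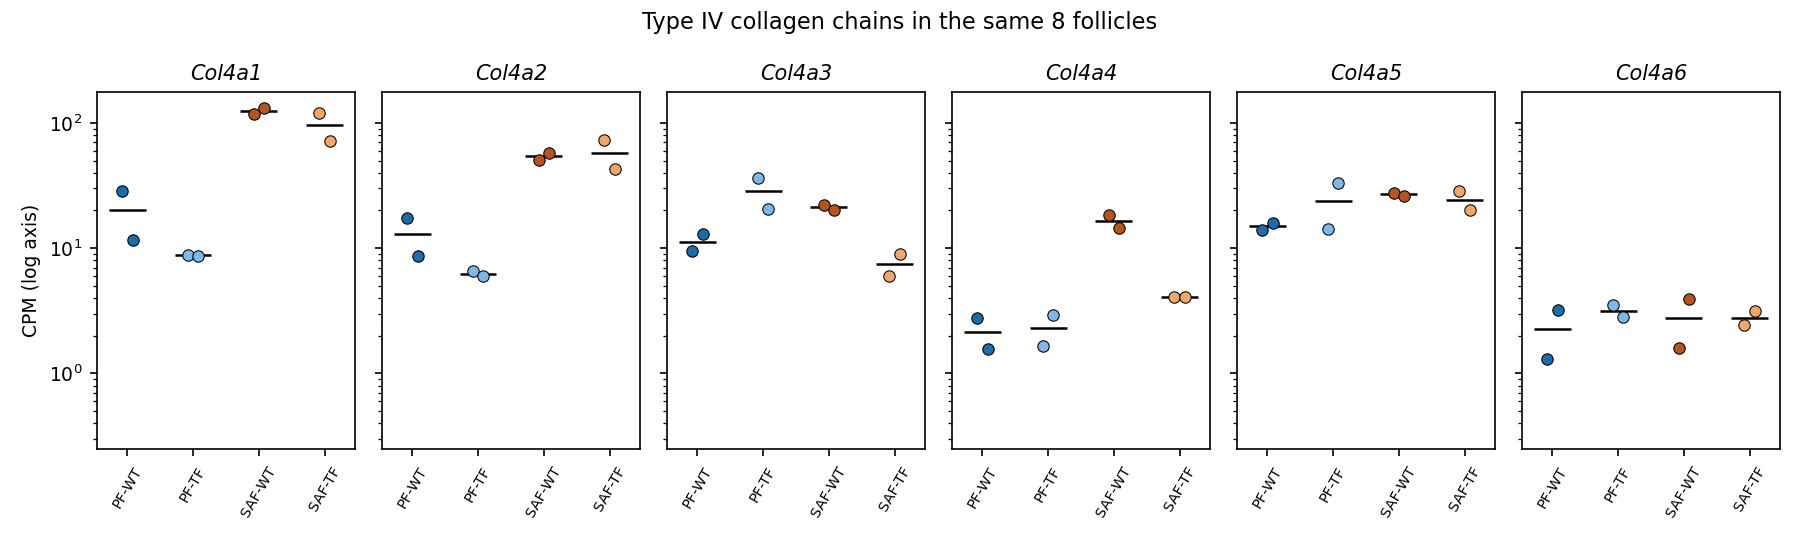
CPM (log axis) of the 6 type IV collagen chains in the 8 follicles by group, with 1 point per library and a bar at the group mean. Col4a1 and Col4a2 have all 4 antral libraries above all 4 preantral ones, and Col4a3 has its 2 SAF-TF libraries below the other 6.

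Among other matrix components, Sparc, a collagen-binding matricellular protein, changed by 2.85 ± 0.32 on the log2 scale with stage in WT (adjusted p = 2.28e-04) and by 2.15 ± 0.31 in TF (adjusted p = 5.50e-04), the latter 1.55 without SAF-TF replicate 1. Smoc2, its relative, changed by 1.69 ± 0.33 in WT (adjusted p = 0.00380). In TF Smoc2 stood at 70.3 and 49.4 CPM in PF and at 79.0 and 40.7 CPM in SAF, which overlapped and did not pass (adjusted p = 0.999). Of 10 receptors tested, 3 were higher and 1 lower in WT, and 2 were higher and 2 lower in TF, beside 35.1% of all genes called in WT and 43.2% in TF. Itga6, the alpha subunit of the main laminin-binding integrins, stood at 103 and 150 CPM in PF-WT, 219 and 217 CPM in PF-TF, 47.2 and 102 CPM in SAF-WT, and 54.9 and 44.2 CPM in SAF-TF. It fell by 2.14 ± 0.35 on the log2 scale with stage in TF (adjusted p = 0.00115). Itga9 fell by 2.88 ± 0.35 in WT (adjusted p = 3.64e-04), and by 2.16 without PF-WT replicate 1. It was also lower with stage in TF (adjusted p = 0.0291), at 110 and 104 CPM in PF-TF and 60.8 and 43.6 CPM in SAF-TF. In SAF it was higher in TF (adjusted p = 0.0164), with 14.1 and 16.6 CPM in SAF-WT. Itga9, Timp1, Smoc1, Fbln1 and Tinagl1 were the 5 listed genes higher in TF in SAF, and Col4a3 and Col4a4 the 2 lower. Tinagl1 stood at 58.8 and 11.7 CPM in SAF-TF.

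Of the 7 genes of matrix remodelling, 3 were higher and 1 lower with stage in WT, and 5 were higher and 1 lower in TF. Of all genes, 12.7% were higher and 22.5% lower in WT, and 18.2% and 25% in TF. The genes of the metalloproteinase inhibitors were among them. Timp1 changed by 1.91 ± 0.28 on the log2 scale in WT (adjusted p = 9.83e-04) and 3.87 ± 0.30 in TF (adjusted p = 2.55e-05). Timp2 changed by 2.68 ± 0.34 (adjusted p = 4.14e-04) and 1.65 ± 0.33 (adjusted p = 0.00303). Timp3 changed by 2.73 ± 0.30 (adjusted p = 2.00e-04) and 2.73 ± 0.29 (adjusted p = 1.15e-04).

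For each of the 10 genes, the 3 most alike genes were taken by Pearson's r of log2 CPM over the 8 libraries, among genes with a mean of at least 10 CPM. These are descriptions over 8 points that share libraries and depth. For Nid1 they were Mir682 (r = 0.999), Uqcr11 (r = 0.998) and Cav1 (r = 0.997), and for Nid2 they were Rfesd (r = 0.996), Tmem147 (r = 0.993) and Acta2 (r = 0.993). Cav1 encodes the coat protein of caveolae and Acta2 encodes smooth muscle actin, one of the smooth muscle markers summed above. For Lamb1 they were Fem1b (r = 0.978), Sycp1 (r = 0.970), a protein of the meiotic synaptonemal complex, and Gm15542 (r = 0.970). For Lama2 they were Copg2 (r = 0.935), Zfp946 (r = 0.920) and Lamb1 (r = 0.893), and for Lamc1 they were Rftn2 (r = 0.951), Col6a1 (r = 0.950), a chain of type VI collagen, and Myof (r = 0.950). For Lama1 they were 2310044G17Rik (r = 0.967), Mmp11 (r = 0.961), a matrix metalloproteinase, and Me2 (r = 0.955). For Lama5 they were Dtnb (r = 0.985), Slc7a7 (r = 0.982) and Thsd7a (r = 0.982).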

How the data were processed

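The counts are raw whole-number reads per gene and library, per the file headers of the 2 tables the authors deposited, 1 for TF and 1 for WT. A second set of deposited columns is a signal (group means of counts that the authors multiplied by a scale factor for each library). Their log2 column is the deposited ratio of SAF to PF, set to a limit of 20 where one is 0. The deposited FDR is an adjusted p-value whose test is not named. The submitters' processing notes name HISAT2 2.0.1 and GRCm38. Libraries were made from polyadenylated RNA of follicles freed by needle, with a SMARTer low input kit, per the labels' protocols. The read counter, annotation and strand setting are not stated.

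Counts of the 21997 genes in both tables were analysed together, leaving out 132 listed only for TF and 141 only for WT. After filterByExpr (min.count 10, min.total.count 15), 17925 genes were fitted with edgeR 4.0.16 (R 4.3.3), TMM factors, 1 mean per group and 4 residual degrees of freedom, and checked on simulated counts. An SE is the log2 fold change over the square root of F. Ratios within a library used a pseudocount of 0.5 and exact permutation over 70 splits. Lengths are those of the longest coding GENCODE vM21 transcript, and reads per kb are CPM per kb. The 10 genes, the basement membrane list and the marker lists (oocyte, granulosa, theca, endothelium, smooth muscle and pericytes, stroma, macrophages, surface epithelium, luteal, Schwann and erythroid cells) were chosen with earlier results of these data known. Named were the 10 genes, type IV collagens, up to 4 genes per class and contrast with the smallest p, and the 3 most alike genes, of which not all are printed. Surface epithelium markers summed to 60.0 to 301 CPM, and 2 erythroid markers to 3.32 to 1935 CPM. Marker sums without the most abundant marker of a list were added after seeing the data. Alternatives were RLE factors, the authors' scale factors, no filter, a 10 CPM filter, DESeq2 1.42.0, the 4 libraries compared, an offset for length and GC content (mgcv 1.9.3), a replicate block, a pseudocount of 5 for ratios, and each library left out.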

Additional observations from a re-analysis of the deposited data

Results flagged for a closer look

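Col4a3 had a stage effect that differed between the sources by the test of that difference. Its log2 interaction, TF minus WT, was -2.84 ± 0.54 (SE) with an adjusted p of 0.0458 by edgeR with Benjamini-Hochberg adjustment over 17925 genes. The level went from 9.45 and 13.0 CPM in PF-WT to 22.0 and 20.3 CPM in SAF-WT, and from 36.3 and 20.7 CPM in PF-TF to 6.05 and 8.91 CPM in SAF-TF. Over 14 alternatives the value ran from -2.32 to -3.13 and the adjusted p from 2.57e-04 to 0.174. The call was lost with the replicate block (adjusted p = 0.0898) and without any 1 library other than PF-WT replicate 2 and PF-TF replicate 2.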

How the results depend on the processing

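Of the 10 genes, edgeR called 3 by stage in WT, 5 by stage in TF, 0 by source in PF, 2 by source in SAF and 0 in the interaction. By source in PF the count was 1 with no filter and with the length and GC offset, and 2 with DESeq2. By source in SAF it was 5 with the 4 antral libraries alone, 4 with the length and GC offset and 4 with DESeq2. In the interaction it was 1 with the offset and 2 with DESeq2. Leaving out 1 library gave 2 to 3 by stage in WT, 3 to 6 by stage in TF, 0 to 2 by source in PF, 0 to 4 by source in SAF and 0 in each case in the interaction. The cause was not tested. Log2 ratios turned sign by stage for Hspg2/Lamc1 (-0.038 with a pseudocount of 5, and -0.14 to 1.05 without 1 library, the lowest without PF-WT replicate 1). By source they turned for Nid1/Nid2 (-0.16 with a pseudocount of 5, and -0.038 to 0.26 without 1 library, the lowest without SAF-TF replicate 2), Lama2/Lama5 (-1.37 to 0.15, the highest without SAF-WT replicate 1) and Lama1/Lama5 (-0.093 to 1.28, the lowest without SAF-TF replicate 2), none of them called. Of the printed gene differences, 48 were put through the alternatives, and none turned sign in 741 values, of which 34 newly passed the threshold and 33 no longer did. Those not put through them include Smoc2 and Itga9 by stage in TF. They also include Itga9, Timp1, Smoc1, Fbln1 and Tinagl1 by source in SAF. Of 22 differences of the 10 genes that are not printed, none passed, and 38 of their 323 alternative values turned sign. Lama5 and Hspg2 were not tested under the 10 CPM filter, and the authors' scale factors, set within each table, were used for the stage effects only. The labels do not say whether equal replicate numbers share an animal or day. Over genes, the deviations of equal numbers from their group means correlated at -0.12 to 0.11, which cannot decide this. With the numbers as a replicate block, 4 of the 10 genes were called by stage in TF, with Lama5 lost (-2.04, adjusted p = 0.0526), and the calls of Col4a3 and Col4a4 by source in SAF were lost (adjusted p = 0.0689 and 0.0548). Over all genes the calls by source in PF went from 39 to 1281 with DESeq2, 207 with no filter, 6 with the block and 3 with the 4 libraries compared, and without 1 library they ran from 1 to 935. By source in SAF they went from 1785 to 3921 with those 4 libraries, 2849 with DESeq2, 1076 with the offset and 1069 with the block, and without 1 library the lowest was 143. In the interaction they went from 162 to 810 with DESeq2 and 74 with the block, and without 1 library they ran from 28 to 343. By stage they went from 6294 to 3075 in WT without SAF-WT replicate 1, and from 7744 to 5136 in TF without SAF-TF replicate 1. The median log2 fold change of all genes by stage was -0.20 in WT and -0.08 in TF with TMM, and 0.14 and 0.27 with the authors' scale factors.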
